A study of Arabidopsis thaliana with 24 samples.

Results

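The comparison covers Medial cells of the Arabidopsis root meristem, set between the SPT line and the PUB25 line. The study sequenced total RNA of protoplasted root meristem cells, sorted by fluorescence from reporter lines of the Col-0 ecotype, in 24 libraries. SPT Medial cells (strain SPT, root meristem) and PUB25 Medial cells (strain PUB25, root meristem) had 3 libraries each, so 6 libraries stand behind the comparison, and both groups share the ecotype, the tissue, the RNA kit and the library kit. The labels leave unsaid how a zone was gated, what Proximal, Medial and Distal are relative to, or whether the lines were sorted and sequenced together, and the zone names are used here as labels only. Genes were taken where the mean of the SPT Medial and PUB25 Medial values was at least 1 FPKM (a fragment count scaled by transcript length and library size), which left 17270 of 32619 gene rows.

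The root meristem supplies new cells to every tissue of the root. Cells leave division on the way from the stem cell niche to the elongation zone, and the outer tissues (root cap, epidermis), the ground tissue (cortex, endodermis) and the stele (pericycle, phloem, xylem) mature at different distances from the tip. Vessel cells of the xylem build a lignified secondary wall under NAC and MYB master regulators and then digest their contents. SPT (SPATULA) is a bHLH transcription factor gene, PUB25 encodes a U-box ubiquitin ligase, and both gave their names to reporter lines.

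The files hold 1 FPKM value per gene, line and zone, so no level or difference below has an error, an n or a replicate check, and no test was run. The 2 columns were quantile-normalized, which gives both the same distribution. A difference is SPT minus PUB25 on log2(FPKM + 1) of the normalized values, so that 1 is a 2-fold difference in normalized FPKM + 1. The printed FPKM are the authors' values before that normalization. A ratio of printed values, low ones above all, can therefore be larger or smaller than the fold counted here. The lines may not share one scaling, and ranks among the 17270 genes (rank 1 is the highest level) and gene groups are therefore given beside single values. The median difference over the 17270 genes was -0.18, and list medians are to be read against it. In such pooled cells fewer cells of a type and less RNA per cell cannot be told apart.

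In SPT Medial cells 2599 genes (15.0%) were at least 2-fold higher and 2193 genes (12.7%) at least 2-fold lower than in PUB25 Medial cells. Genes of lignin synthesis, secondary walls, the endodermis, water channels and the jasmonate pathway stood mostly on the higher side in the SPT line. The measured vessel transcription factor, pericycle and phloem genes did so too, but many of them passed the filter only through their SPT value. Genes of root meristem growth factor peptides, of root triterpenes, of mitosis and of nitrogen and sulfur uptake stood mostly on the lower side. Genes of root hairs and epidermal fate did so too, but some of them passed the filter only through their PUB25 value. Median centring in place of quantile normalization gave 3073 higher and 1530 lower genes, and the values as deposited gave 2459 higher and 2618 lower, so the split of higher against lower genes depends on the scaling.

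The higher side reached further. At least 4-fold differences were found for 1211 genes higher and 472 genes lower in SPT Medial cells, and at least 8-fold differences for 548 higher and 168 lower. Of the 2599 higher genes 274 were listed at 0 FPKM in PUB25 Medial cells, and of the 2193 lower genes 111 were listed at 0 FPKM in SPT Medial cells. The 4-fold and 8-fold counts did not leave such genes out, and their size there rests on the added 1 FPKM. No fold is given for any of them by name. Spearman's rho between the levels of the SPT Medial and PUB25 Medial columns was 0.759 across the 17270 genes, which are not independent replicates. Within the SPT line the Medial column had a rho of 0.894 with Distal and 0.799 with Proximal. Within the PUB25 line it had 0.957 with Distal and 0.931 with Proximal, so each Medial column was closer to the other zones of its own line than to the other line's Medial column. PUB25 Medial had 0.813 with SPT Proximal. At the 2-fold limit, GATL5 lay just inside with a difference of 1.003 (55.0 FPKM in SPT Medial cells, against 31.8 FPKM in PUB25 Medial cells). APRR2 lay just outside with 0.999 (2.44 FPKM in SPT Medial cells, against 0.533 FPKM in PUB25 Medial cells).

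**Figure D1:**
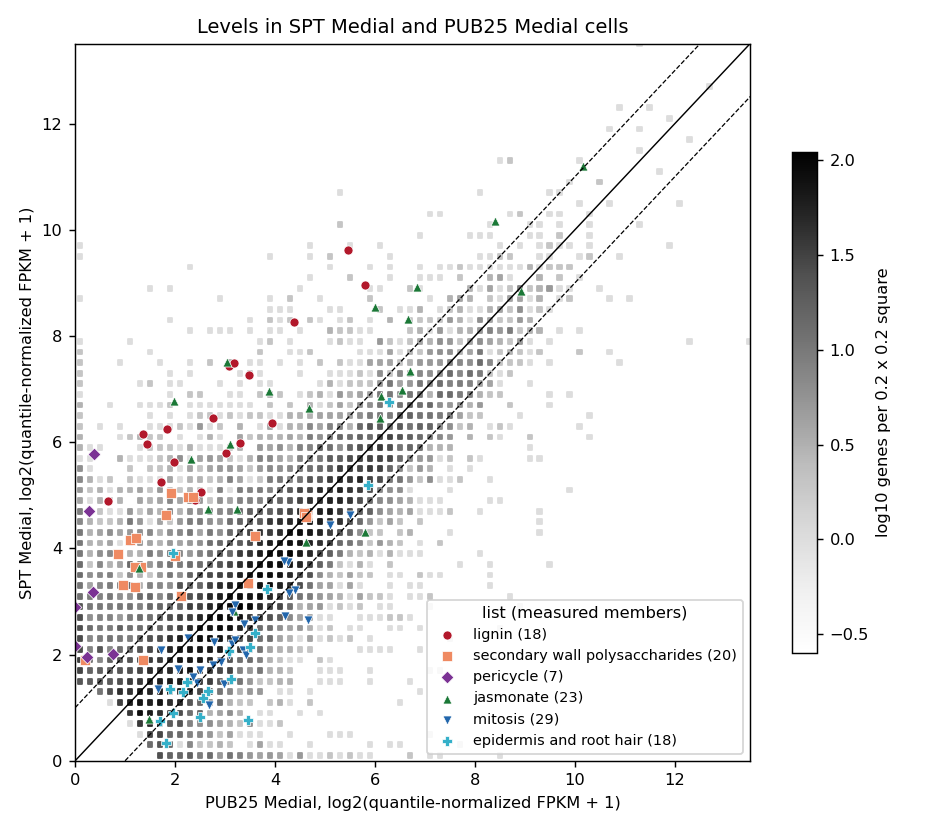
Level of each measured gene in SPT Medial cells (vertical axis) and in PUB25 Medial cells (horizontal axis), both as log2 of quantile-normalized FPKM + 1. Grey squares show how many genes fall in each 0.2 by 0.2 square, the dashed lines mark 2-fold differences, coloured symbols are members of 6 lists, and 3 rows lie outside the plotted range. Lignin, secondary wall and pericycle genes lie above the upper dashed line for the most part, and mitosis and epidermis genes lie below the diagonal for the most part.

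A check of the labels came first. SPT had 5.66 FPKM in SPT Medial cells, against 15.9 FPKM in PUB25 Medial cells, a difference of -1.25. PUB25 had 6.30 FPKM in SPT Medial cells, against 4.98 FPKM in PUB25 Medial cells, a difference of 0.32. Neither reporter gene was therefore at least 2-fold higher in the Medial cells of its own line, and the labels do not say which part of a reporter transcript would count towards the gene. Of 14 stem cell niche genes with a row, 12 passed the filter, with a median level of 7.73 FPKM in SPT Medial cells and 9.31 FPKM in PUB25 Medial cells. PLT2, an AP2 factor of the stem cell niche, had 8.07 FPKM in SPT Medial cells, against 20.3 in PUB25 Medial cells. ACR4, a receptor kinase of root stem cells, had 1.08 FPKM in SPT Medial cells, against 2.48 in PUB25 Medial cells. Of 28 photosynthesis genes with a row only 8 passed the filter, and their highest level was 11.1 FPKM in SPT Medial cells and 3.74 FPKM in PUB25 Medial cells. One row, AT2G01021, held 74.9% of the FPKM sum in SPT Medial cells and 63.0% in PUB25 Medial cells, and the depth of the libraries is unknown since the files hold no counts.

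The data can be read beside 2 short promoter motifs. The first is the tracheary element-regulating element (TERE), read here as CTT, any base, AAAGC, any base and A, known from promoters of vessel genes in Zinnia and Arabidopsis. It was searched on both strands in the 300 bases before the annotated start of each protein-coding gene. It was found in 118 of 27431 promoters (0.430%). The windows below are from the TAIR10.1 genome of RefSeq and are shown because these vessel genes stood differently in the comparison. Each is written 5′ to 3′ on the gene's strand, the plus strand in all of them, with the match in capitals.
XCP1, chr4:16810377-16810447, ending 34 bases before the gene start: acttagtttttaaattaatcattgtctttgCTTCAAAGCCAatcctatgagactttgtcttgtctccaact
LBD30, chr4:89790-89860, ending 47 bases before the gene start: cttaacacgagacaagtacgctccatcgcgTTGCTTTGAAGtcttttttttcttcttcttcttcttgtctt
MC9, chr5:1153647-1153717, ending 22 bases before the gene start: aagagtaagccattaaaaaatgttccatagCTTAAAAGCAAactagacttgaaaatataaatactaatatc
In LBD30 the letters are the reverse complement of the motif. The motif was present in 16 of 2331 promoters of genes higher in SPT Medial cells (0.686%), in 9 of 2035 of genes lower (0.442%) and in 78 of 15932 of all measured protein-coding genes (0.490%). XCP1 and LBD30 were higher in SPT Medial cells and MC9 was not, as given below. A match in a window is a description and says nothing about binding.

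The other motif is the G-box, CACGTG, which reads the same on both strands and is known to bind bHLH factors such as MYC2. It was present in 1944 of the 27431 promoters (7.09%) and in 1291 of 15932 promoters of all measured protein-coding genes (8.10%). Genes higher in SPT Medial cells had nearly the same share as all measured ones, 189 of 2331 promoters (8.11%), and genes lower had 146 of 2035 (7.17%). Among 27 genes of the jasmonate list it was present in 4, whose windows are shown because all 4 genes were at least 2-fold higher in SPT Medial cells. The match is in capitals again.
JAZ7, chr2:14572956-14573029, plus strand, ending at the gene start: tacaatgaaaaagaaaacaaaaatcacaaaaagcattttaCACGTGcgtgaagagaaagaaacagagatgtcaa
JAZ8, chr1:10596302-10596351, plus strand, ending at the gene start: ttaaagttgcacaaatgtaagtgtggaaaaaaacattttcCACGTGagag
JAZ2, chr1:28150477-28150552, minus strand, ending 30 bases before the gene start: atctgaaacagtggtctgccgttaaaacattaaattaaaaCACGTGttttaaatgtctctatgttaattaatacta
AOS, chr5:17099596-17099641, minus strand, ending at the gene start: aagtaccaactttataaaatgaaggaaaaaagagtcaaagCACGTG
The levels of these genes follow with their pathways. A heat shock element, read as GAA, any 2 bases and TTC on both strands, was in 3147 of the 27431 promoters (11.5%). It was in 1779 of 15932 promoters of all measured protein-coding genes (11.2%) and in 6 of 21 promoters of the heat shock list.

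Vessel regulators stood mostly to the SPT side by count, in part through the filter. Of 15 measured vessel transcription factor genes 9 were at least 2-fold higher in SPT Medial cells and 1 was lower, with a median of 1.87, where 15.0% of all measured genes were higher and 12.7% lower. Of these 15, 6 were under 1 FPKM in PUB25 Medial cells and passed the filter only through the SPT value. All 6 were higher, VND7 and LBD30 among them, so nothing is read from their count. Of the other 9, 3 were higher, 1 lower and 5 within 2-fold. VND7, a NAC switch that turns cells into vessels, had 11.95 FPKM in SPT Medial cells, against 0.896 FPKM in PUB25 Medial cells (2.74). VND4 differed by 2.69 and VND5 by 1.87, while VND1 (0.20), VND2 (0.24) and VND3 (0.996) were within 2-fold. VND3 lay at the edge of the limit. MYB46, a direct target of the VND factors that switches on wall genes, had 41.6 FPKM in SPT Medial cells, against 2.89 FPKM in PUB25 Medial cells (3.54). KNAT7, a homeodomain regulator of secondary walls, had 85.5 FPKM in SPT Medial cells, against 7.19 FPKM in PUB25 Medial cells (3.55). LBD30, which acts with VND7, had 6.19 FPKM in SPT Medial cells, against 0.143 FPKM in PUB25 Medial cells (2.62). SND3, a NAC gene of secondary walls, was the member on the lower side, with 4.11 FPKM in SPT Medial cells, against 10.7 FPKM in PUB25 Medial cells (-1.13).

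Of 20 measured genes of secondary wall polysaccharides 13 were at least 2-fold higher in SPT Medial cells and none was lower, with a median of 2.21. Of these 20, 4 were under 1 FPKM in PUB25 Medial cells, passed the filter only through the SPT value and were higher. Of the other 16, 9 were higher and 7 within 2-fold. The 3 cellulose synthase subunits of secondary walls stood together in these columns. CESA4 had 28.2 FPKM in SPT Medial cells, against 3.78 FPKM in PUB25 Medial cells (2.71). CESA7 had 28.0 FPKM in SPT Medial cells, against 4.13 FPKM in PUB25 Medial cells (2.603). CESA8 had 15.9 FPKM in SPT Medial cells, against 0.994 FPKM in PUB25 Medial cells (3.07). All 3 subunits were thus several times higher in SPT Medial cells. CESA4 also held a TERE in its window. Among the enzymes and helpers of xylan synthesis, TBL29 (3.12), GUX2 (3.02), IRX15 (2.97), GUX1 (2.35), IRX9 (2.33) and FRA8 (1.70) were higher. IRX10 (0.65), IRX14 (-0.01), PARVUS (0.09) and GXM1 (-0.04), which also act on xylan, were within 2-fold. The xylan genes therefore did not share one difference.

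All 18 measured lignin genes were at least 2-fold higher in SPT Medial cells, with a median of 3.73, the largest of the 36 lists. A further 3 with a row were under the filter. The general phenylpropanoid steps were included. PAL1, the entry enzyme that deaminates phenylalanine, had 155 FPKM in SPT Medial cells, against 7.66 FPKM in PUB25 Medial cells (4.36). C4H had 419 FPKM in SPT Medial cells, against 59.2 FPKM in PUB25 Medial cells (3.16). CCoAOMT1, a methylating enzyme of monolignol synthesis, had 648 FPKM in SPT Medial cells, against 46.3 FPKM in PUB25 Medial cells (4.17), which placed it at rank 63 in SPT Medial cells and rank 2566 in PUB25 Medial cells. The laccases that polymerize lignin in the wall stood as far apart. LAC4 had 67.6 FPKM in SPT Medial cells, against 2.43 FPKM in PUB25 Medial cells (4.41). LAC11 differed by 4.53 and LAC17 by 4.79. FAH1, the ferulate 5-hydroxylase of syringyl lignin, was under the filter, with 0.302 FPKM in SPT Medial cells, against 0.932 FPKM in PUB25 Medial cells.

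Genes of vessel cell death were mixed, 5 higher and 2 lower of 11 measured, with a median of -0.14. Of these 11, 2 were under 1 FPKM in PUB25 Medial cells, TED6 among them. Both passed the filter only through the SPT value and were higher. Of the other 9, 3 were higher, 2 lower and 4 within 2-fold. XCP2, a papain-like protease of vessels, had 648 FPKM in SPT Medial cells, against 28.2 FPKM in PUB25 Medial cells (4.86), rank 62 in SPT Medial cells and rank 4011 in PUB25 Medial cells. XCP1, its close relative and one of the TERE promoters shown above, had 95.3 FPKM in SPT Medial cells, against 3.58 FPKM in PUB25 Medial cells (4.53). TED6, which takes part in vessel wall formation, had 72.9 FPKM in SPT Medial cells, against 0.821 FPKM in PUB25 Medial cells (5.38), and TED7 differed by 4.49. The metacaspase MC9 had 25.2 FPKM in SPT Medial cells, against 54.1 FPKM in PUB25 Medial cells (-0.86). The aspartic protease PASPA3 had 22.5 FPKM in SPT Medial cells, against 105 FPKM in PUB25 Medial cells (-1.96). The ribonuclease RNS3 had 17.42 FPKM in SPT Medial cells, against 94.6 FPKM in PUB25 Medial cells (-2.16). PASPA3, RNS3, MC9 and BFN1 are also known from dying root cap cells, so the members on the lower side are not vessel genes alone. The root cap list had 3 of 8 measured genes lower, among them the NAC factor BRN2 with 31.8 FPKM in SPT Medial cells, against 209 FPKM in PUB25 Medial cells (-2.42). The part of root cap cells in these lower values was not tested.

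**Figure D2:**
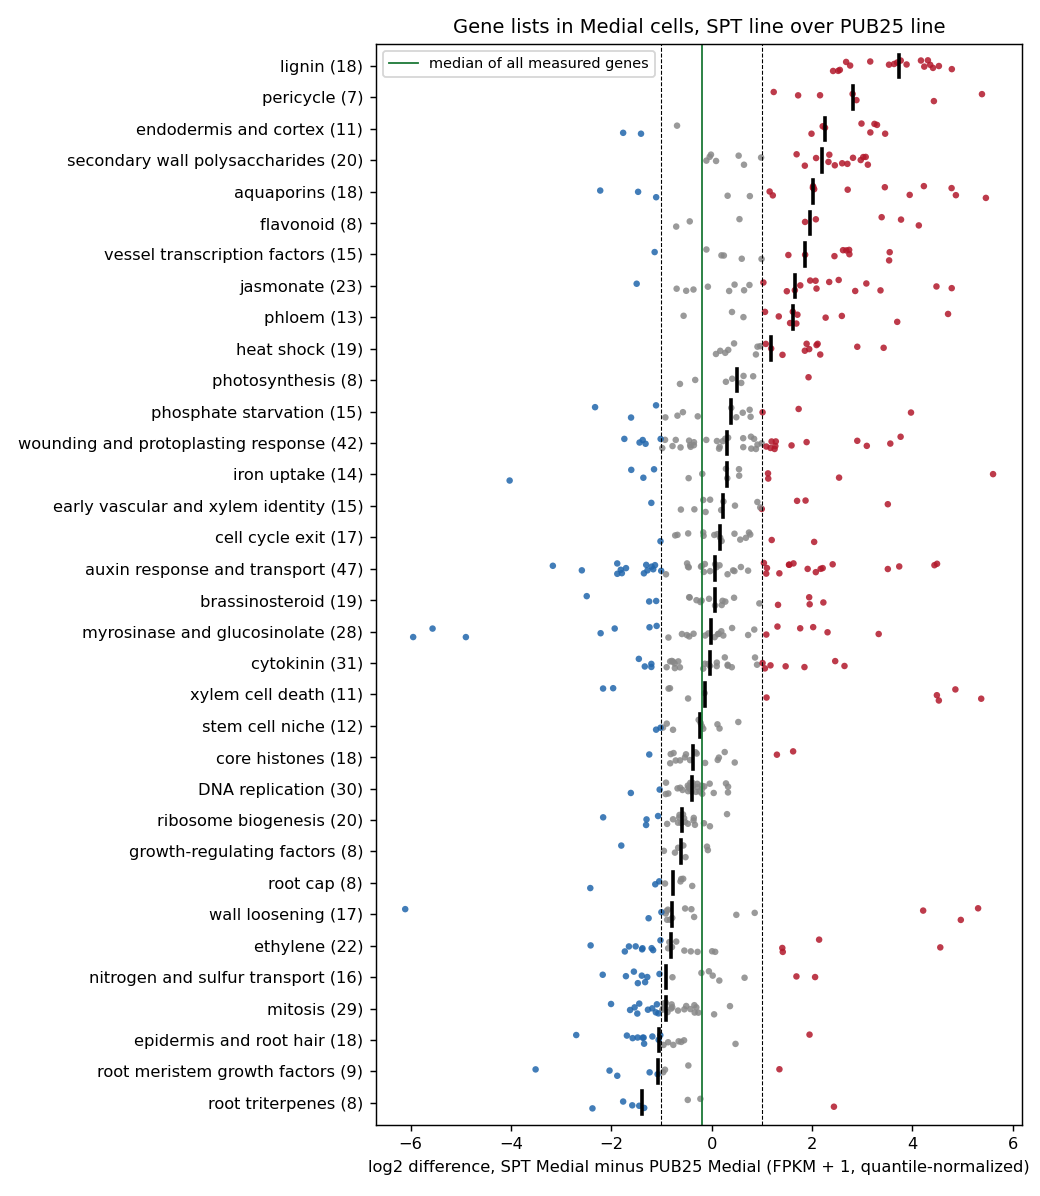
Difference of each measured list member, SPT Medial minus PUB25 Medial on log2 of quantile-normalized FPKM + 1, for the lists with at least 7 measured members (number in brackets). Red points are at least 2-fold higher and blue points at least 2-fold lower in SPT Medial cells, the dashed lines mark 2-fold, black bars are list medians and the green line is the median of all measured genes at -0.18. Lignin heads the order with a median of 3.73, and the root triterpene genes close it with -1.39.

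Markers of the other stele tissues were mostly low in PUB25 Medial cells. All 7 measured pericycle genes were at least 2-fold higher, with a median of 2.81, and 6 of them were under 0.3 FPKM in PUB25 Medial cells. LBD16, which starts lateral root founder cells, had 49.1 FPKM in SPT Medial cells, against 0.234 FPKM in PUB25 Medial cells (5.39). PHO1, which loads phosphate into the xylem, had 23.4 FPKM in SPT Medial cells, against 0.159 FPKM in PUB25 Medial cells (4.43). LBD29 had 6.26 FPKM in SPT Medial cells and was listed at 0 FPKM in PUB25 Medial cells. All 7 were under 1 FPKM in PUB25 Medial cells and passed the filter only through the SPT value, so a higher count was built into the choice and nothing is read from it. Of 13 measured phloem genes 10 were higher and none lower, with a median of 1.62. Of these 13, 7 were under 1 FPKM in PUB25 Medial cells, and for them the same holds. Of the other 6, 3 were higher and 3 within 2-fold. A further 9 phloem genes with a row were under the filter, and with no filter the median of the list was 0.94. SUC2, the sucrose loader of companion cells, had 46.7 FPKM in SPT Medial cells, against 0.833 FPKM in PUB25 Medial cells (4.71). APL, a MYB-type factor of phloem identity, had 5.79 FPKM in SPT Medial cells, against 0.0956 FPKM in PUB25 Medial cells (2.597). OPS (0.41), SMXL3 (0.64) and CVL1 (-0.56), which act early in phloem cells, were within 2-fold.

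Of 11 measured genes of the endodermis and cortex 8 were higher and 2 lower, with a median of 2.26. MYB36, which switches on Casparian strip genes, had 19.8 FPKM in SPT Medial cells, against 0.871 FPKM in PUB25 Medial cells (3.46). CASP1, a membrane scaffold of the Casparian strip, had 89.5 FPKM in SPT Medial cells, against 9.47 FPKM in PUB25 Medial cells (3.298). CASP2, CASP5, the peroxidase PER64 and the oxidase RBOHF, which build the strip, differed by 1.99 to 3.25. SCZ, a heat shock factor-like regulator of ground tissue divisions, had 2.999 FPKM in SPT Medial cells, against 9.68 FPKM in PUB25 Medial cells (-1.41). Strip genes thus stood apart from SCZ. Suberin genes, of which 5 of 12 with a row were measured, had 1 member higher (ASFT, 1.45). In the list of early vascular and xylem identity 4 of 15 were higher and 1 lower, with a median of 0.24. TMO5, a bHLH factor of vascular initials, had 12.6 FPKM in SPT Medial cells, against 2.80 FPKM in PUB25 Medial cells (1.87), and its target LOG4 differed by 1.70. The cytokinin receptor AHK4 had 14.6 FPKM in SPT Medial cells, against 39.96 FPKM in PUB25 Medial cells (-1.20).

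Genes of outer tissues leaned to the other side. Of 18 measured epidermis and root hair genes 10 were at least 2-fold lower in SPT Medial cells and 1 was higher, with a median of -1.04. Of these 18, 5 were under 1 FPKM in SPT Medial cells and passed the filter only through the PUB25 value. Of these 5, 4 were lower, EGL3 among them, so the lower count was partly built into the choice. Of the other 13, 6 were lower, 1 higher and 6 within 2-fold. EGL3, a bHLH factor of non-hair cell fate, had 0.822 FPKM in SPT Medial cells, against 10.5 FPKM in PUB25 Medial cells (-2.70). GL2, the homeodomain factor of non-hair cells, had 3.47 FPKM in SPT Medial cells, against 10.7 FPKM in PUB25 Medial cells (-1.35). SCM, the receptor kinase that places hair cells, had 2.08 FPKM in SPT Medial cells, against 7.93 FPKM in PUB25 Medial cells (-1.57). RSL4, which drives hair growth, was lower as well (-1.47), so regulators of both fates stood on this side, with wall genes of growing hairs such as PRPL1 (-1.69) and LRX1 (-1.37). ETC1, a small MYB that moves between epidermal cells, was the exception with 13.3 FPKM in SPT Medial cells, against 2.81 FPKM in PUB25 Medial cells (1.95).

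The root meristem growth factor list had 5 of 9 measured genes lower and 1 higher, with a median of -1.08. These secreted peptides are known to keep PLETHORA proteins in the meristem. RGF2 had 2.32 FPKM in SPT Medial cells, against 37.6 FPKM in PUB25 Medial cells (-3.51). RGF3 had 5.70 FPKM in SPT Medial cells, against 28.7 FPKM in PUB25 Medial cells (-2.03), and RGF4 differed by -1.88. The receptors were split, RGFR1 at 1.35 and RGFR2 at -1.23. Of 12 measured stem cell niche genes 2 were lower and none higher, with a median of -0.24, close to that of all genes.

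**Figure D3:**
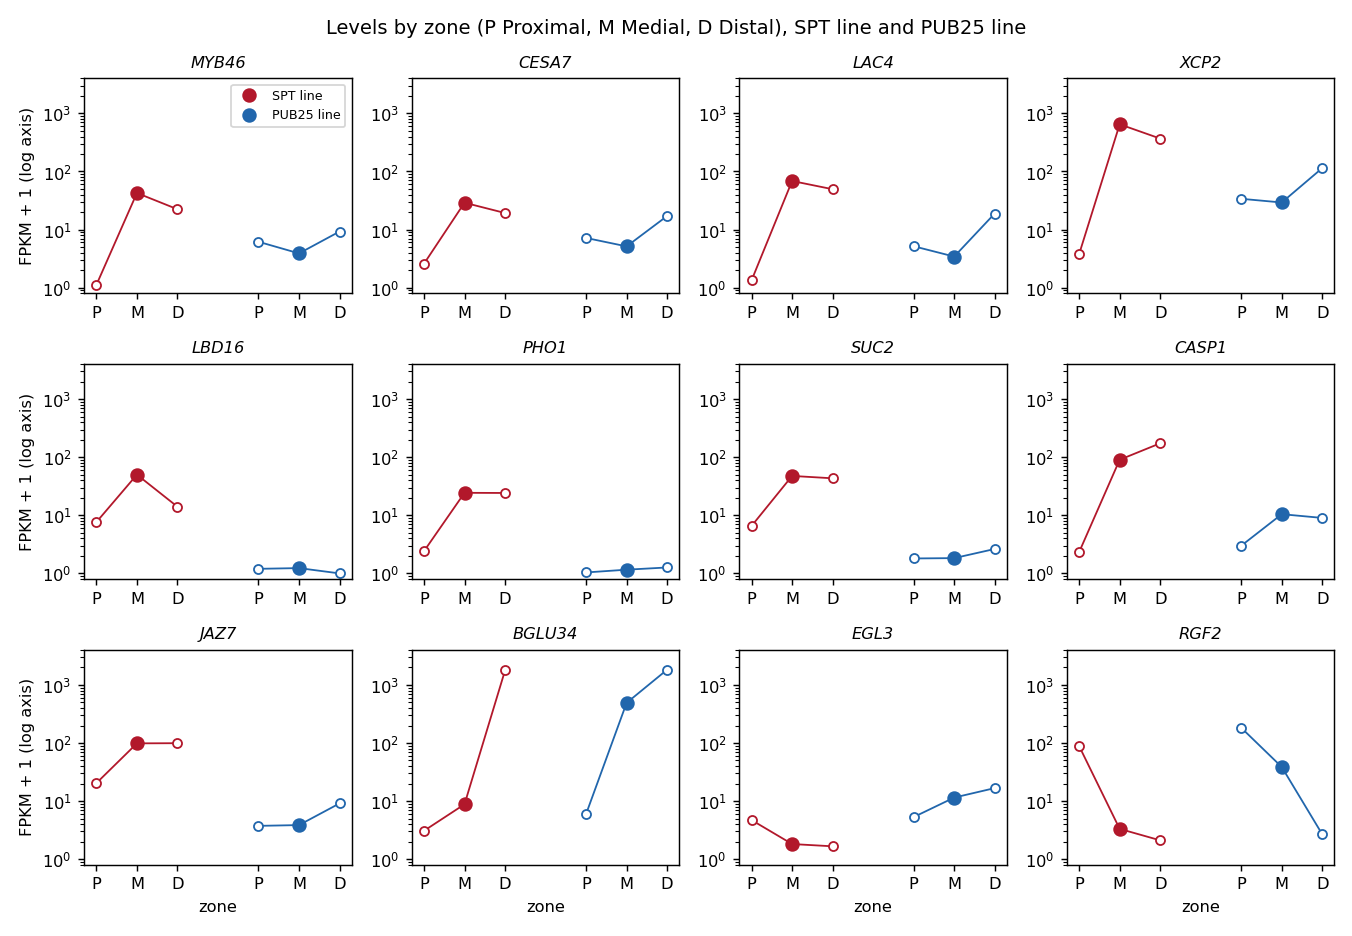
Deposited FPKM + 1 on a log axis for 12 genes in the Proximal (P), Medial (M) and Distal (D) cells of the SPT line (red, left) and the PUB25 line (blue, right), with Medial cells as filled points and 1 pooled value per point. MYB46, CESA7, LAC4 and XCP2 peaked in Medial cells in the SPT line and in Distal cells in the PUB25 line. LBD16, PHO1 and SUC2 stayed under 2 FPKM in every zone of the PUB25 line, and BGLU34 was low in SPT Medial cells at 7.81 FPKM and at 1774 FPKM in SPT Distal cells.

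Of 29 measured mitosis genes 10 were at least 2-fold lower and none higher in SPT Medial cells, with a median of -0.91. CYCB1;4, a mitotic cyclin, had 5.23 FPKM in SPT Medial cells, against 25.8 FPKM in PUB25 Medial cells (-2.00). The spindle checkpoint target CDC20.2 differed by -1.62, and the kinesin HIK of the cell plate by -1.48. CDKB1;2 (0.37) lay on the other side of zero. DNA replication genes had 2 lower and none higher of 30 measured, with a median of -0.39, and their 6.67% lower was under the 12.7% of all genes. The 6 MCM helicase subunits in that list lay between -0.46 and -0.04. Among the inhibitors that take cells out of division, SIM had 37.9 FPKM in SPT Medial cells, against 9.52 FPKM in PUB25 Medial cells (2.05), and KRP2 differed by 1.199, while 14 of the 17 measured genes of that list were within 2-fold. Ribosome biogenesis had 4 lower and none higher of 20 measured, with a median of -0.59, where 12.7% of all genes were lower. The nucleolar protein genes FIB2 (-1.30), NOP56 (-1.31) and NUC-L2 (-2.16) were among the lower ones.

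Water channels were mostly higher in SPT Medial cells, 13 of 18 measured, and 3 were lower, with a median of 2.02. TIP1;1, a tonoplast channel, had 837 FPKM in SPT Medial cells, against 40.4 FPKM in PUB25 Medial cells (4.78). PIP2;1, a plasma membrane channel, had 604 FPKM in SPT Medial cells, against 25.96 FPKM in PUB25 Medial cells (4.87). PIP2;2 (5.47) and PIP2;3 (4.23) are near-identical copies and their split is uncertain. TIP4;1 went the other way, with 4.21 FPKM in SPT Medial cells, against 24.8 FPKM in PUB25 Medial cells (-2.22). Wall loosening genes were split, 3 higher and 3 lower of 17. Of these 17, 3 were under 1 FPKM in PUB25 Medial cells and passed the filter only through the SPT value, and 2 of them were higher. Of the other 14, 1 was higher and 3 lower. XTR6, a xyloglucan endotransglycosylase, had 222 FPKM in SPT Medial cells, against 5.53 FPKM in PUB25 Medial cells (5.31). The expansin EXPA9, whose name covers several loci, had 4.30 FPKM in SPT Medial cells, against 422 FPKM in PUB25 Medial cells (-6.11).

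Uptake genes for nitrogen and sulfur were lower, 8 of 16 measured, and 2 were higher, with a median of -0.91. LHT1, an amino acid carrier, had 60.0 FPKM in SPT Medial cells, against 346 FPKM in PUB25 Medial cells (-2.17). SULTR1;2, a sulfate carrier, had 15.1 FPKM in SPT Medial cells, against 53.4 FPKM in PUB25 Medial cells (-1.55). The nitrate reductase NIA2 differed by -1.71 and the nitrate carrier NRT1.1 by -1.47. Iron genes had 4 members each way of 14. Of these 14, 2 were under 1 FPKM in PUB25 Medial cells, passed the filter only through the SPT value and were higher, VTL1 among them. Of the other 12, 2 were higher and 4 lower. FRO2, the ferric reductase of the root surface, had 5.44 FPKM in SPT Medial cells, against 115 FPKM in PUB25 Medial cells (-4.03). The ferritin FER1, an iron store, had 157 FPKM in SPT Medial cells, against 31.3 FPKM in PUB25 Medial cells (2.54). VTL1, a carrier into the vacuole, had 43.8 FPKM in SPT Medial cells and was listed at 0 FPKM in PUB25 Medial cells. Phosphate starvation genes had 3 members each way of 15, with RNS1, a secreted ribonuclease, at 3.98 and SQD2, which makes sulfolipid, at -2.32.

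Among the hormone pathways, jasmonate stood out by its counts, 14 higher and 1 lower of 23 measured, with a median of 1.66. The JAZ genes encode repressors that the hormone removes and that jasmonate itself induces. JAZ7 had 97.6 FPKM in SPT Medial cells, against 2.86 FPKM in PUB25 Medial cells (4.79). JAZ10 had 314 FPKM in SPT Medial cells, against 69.2 FPKM in PUB25 Medial cells (2.53). JAZ8 differed by 2.09 and JAZ2 by 1.77. All 3 of JAZ2, JAZ7 and JAZ8 hold the G-box shown above. JAZ1 was close to the 2-fold limit with 1653 FPKM in SPT Medial cells, against 1385 FPKM in PUB25 Medial cells (1.03), with deposited values that lay closer together. In synthesis, AOS had 274 FPKM in SPT Medial cells, against 110 FPKM in PUB25 Medial cells (1.66). The cyclases AOC1, AOC2 and AOC3, near-identical copies whose split is uncertain, differed by 3.37, 4.48 and 2.07. The receptor COI1 (-0.36) and the factor MYC2 (-0.07) were within 2-fold, and MYC3 was lower at -1.49.

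Preparing protoplasts is itself a wound. Of 42 measured genes of the wounding and protoplasting list 12 were higher and 5 lower in SPT Medial cells, with a median of 0.30, and their level ran up to 2477 FPKM in SPT Medial cells and 3069 FPKM in PUB25 Medial cells, both for DREB2A. In that list WRKY18 (3.77), MYB15 (3.56) and TCH3 (3.09) were the furthest on the higher side, and PUB22 (-1.74), WRKY53 (-1.44) and ZAT11 (-1.37) the furthest on the lower. Heat shock genes had 11 of 19 higher and none lower, with a median of 1.19. HSFB1 had 293 FPKM in SPT Medial cells, against 33.7 FPKM in PUB25 Medial cells (3.43), and HSP70, a chaperone, had 214 FPKM in SPT Medial cells, against 34.4 FPKM in PUB25 Medial cells (2.90). In Proximal cells 1 of 42 measured wounding genes was higher and 21 lower in the SPT line, with a median of -0.99, while the jasmonate median was 0.13 there. In Distal cells 12 of 42 wounding genes were higher and 1 lower, with a median of 0.59, and the jasmonate median was 0.98. The part of sample handling in the jasmonate and heat shock values was not tested.

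Auxin genes were split, 16 higher and 14 lower of 47 measured, with a median of 0.07, and the split ran through families of like function. Of the Aux/IAA repressors IAA13 had 112 FPKM in SPT Medial cells, against 4.82 FPKM in PUB25 Medial cells (4.44), and IAA28 differed by 3.51. IAA20 had 2.23 FPKM in SPT Medial cells, against 18.5 FPKM in PUB25 Medial cells (-2.59), and IAA1 differed by -1.88. Of the carriers the influx gene LAX3 had 102 FPKM in SPT Medial cells, against 4.07 FPKM in PUB25 Medial cells (4.49), and the efflux genes PIN3 (2.41) and PIN7 (2.08) were higher. PIN2, the efflux carrier of epidermis and cortex, had 56.7 FPKM in SPT Medial cells, against 158 FPKM in PUB25 Medial cells (-1.20), and the influx gene AUX1 had 65.0 FPKM in SPT Medial cells, against 197 FPKM in PUB25 Medial cells (-1.30). Of the synthesis genes YUC3 had 7.68 FPKM in SPT Medial cells, against 86.4 FPKM in PUB25 Medial cells (-3.16), and TAR2 (-1.88), YUC8 (-1.13) and TAA1 (-1.004) were lower too, while YUC5 was higher at 1.09.

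Ethylene genes were lower more often than higher, 9 against 4 of 22 measured, with a median of -0.82. ACO5 and ACO1, which make ethylene, differed by -1.39 and -2.41, and the signalling protein EIN2 had 14.8 FPKM in SPT Medial cells, against 45.9 FPKM in PUB25 Medial cells (-1.38). ACS11, a name with several loci, had 21.2 FPKM in SPT Medial cells and was listed at 0 FPKM in PUB25 Medial cells. Cytokinin genes had 7 higher and 4 lower of 31, with a median of -0.03. Of these 31, 4 were under 1 FPKM in PUB25 Medial cells, passed the filter only through the SPT value and were higher. Of the other 27, 3 were higher and 4 lower. The type-A response regulators ARR5 (1.48), ARR6 (1.06) and ARR7 (1.85) were higher, and ARR3 (-0.77), ARR4 (-0.13) and ARR9 (-0.73) were within 2-fold. Brassinosteroid genes had 4 higher and 3 lower of 19, with a median of 0.07. Of these 19, 5 were under 1 FPKM in PUB25 Medial cells and passed the filter only through the SPT value, and 2 of them were higher. Of the other 14, 2 were higher and 3 lower. The synthesis enzymes DWF4 (2.23), BR6OX1 (1.96), CPD (1.95) and BR6OX2 (1.32) were higher, and the receptor BRI1 had 25.7 FPKM in SPT Medial cells, against 66.3 FPKM in PUB25 Medial cells (-1.10). BAS1, which inactivates the hormone, had 14.1 FPKM in SPT Medial cells, against 96.8 FPKM in PUB25 Medial cells (-2.49).

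In specialized metabolism 5 of 8 measured flavonoid genes were higher and none lower, with a median of 1.97. The list has 16 rows, of which 8 were under the filter, and with no filter its median was 0.04. TT4, the chalcone synthase at the entry of the pathway, had 70.8 FPKM in SPT Medial cells, against 4.82 FPKM in PUB25 Medial cells (3.78). The flavonol synthase FLS1 had 47.4 FPKM in SPT Medial cells, against 1.86 FPKM in PUB25 Medial cells (4.13). Of 8 measured root triterpene genes, of the thalianol and marneral clusters and of others, 5 were lower and 1 higher, with a median of -1.39. The higher gene was under 1 FPKM in PUB25 Medial cells, and 1 of the lower genes was under 1 FPKM in SPT Medial cells. Each passed the filter only through the other value. THAH, the thalianol hydroxylase, had 73.7 FPKM in SPT Medial cells, against 276 FPKM in PUB25 Medial cells (-1.58). The myrosinase and glucosinolate list had 6 higher and 7 lower of 28, with a median of -0.00. Of the higher genes 3 were under 1 FPKM in PUB25 Medial cells and passed the filter only through the SPT value. Of the lower genes 1 was under 1 FPKM in SPT Medial cells and passed only through the PUB25 value. Among the 25 with at least 1 FPKM in PUB25 Medial cells 3 were higher and 7 lower. The extremes of the list were wide. The glucosinolate carrier GTR1 had 111 FPKM in SPT Medial cells, against 11.95 FPKM in PUB25 Medial cells (3.33), while the myrosinases described next lay at the other end.

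The 12 genes furthest on the lower side, by the rule that names genes here, had higher values in SPT Distal cells than in SPT Medial cells. BGLU35, a root myrosinase at 19087382 to 19090539 on chromosome 1 (TAIR10), had 6.66 FPKM in SPT Medial cells, against 566 FPKM in PUB25 Medial cells (-5.95). BGLU34, its near copy at 17491732 to 17494759 on chromosome 1, had 7.81 FPKM in SPT Medial cells, against 490 FPKM in PUB25 Medial cells (-5.56). In Distal cells BGLU34 had 1774 FPKM in the SPT line and 1829 FPKM in the PUB25 line. The myrosinase-binding protein gene MLP-300B ran alike, with 19.0 FPKM in SPT Medial cells, against 753 FPKM in PUB25 Medial cells (-4.90), and 1733 FPKM in SPT Distal cells, against 2202 FPKM in PUB25 Distal cells. CSLB01 (13836180 to 13839666 on chromosome 2) and CSLB02 (13840677 to 13844406), neighbouring genes of cellulose synthase-like proteins, had 1.32 and 0.202 FPKM in SPT Medial cells, against 104 and 65.9 FPKM in PUB25 Medial cells (-5.47 and -5.73). ATPUP20, at 17485650 to 17488046 on chromosome 1, had 0.0635 FPKM in SPT Medial cells, against 18.4 FPKM in PUB25 Medial cells (-4.14). The fatty acid desaturase ADS1 (-5.22), the sulfotransferase ST4A (-4.90), EDA36 (-4.74), the cis-prenyltransferase CPT (-4.45), GulLO5 (-4.29) and the microtubule protein MAP18 (-4.26) made up the rest. All 12 were at least 20 FPKM in SPT Distal cells.

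Of the 12 genes furthest on the higher side, all but GASA1 and XTR6 stayed under 10 FPKM in every zone of the PUB25 line. ZF14, a MATE efflux carrier at 21653006 to 21655439 on chromosome 1, had 415 FPKM in SPT Medial cells, against 1.68 FPKM in PUB25 Medial cells (7.45), rank 139 in SPT Medial cells and rank 15065 in PUB25 Medial cells. CLE5, a signalling peptide gene at 13252219 to 13252765 on chromosome 2 whose near copy is CLE6, had 168 FPKM in SPT Medial cells, against 0.718 FPKM in PUB25 Medial cells (6.68). LCR68, a small cysteine-rich protein gene, had 188 FPKM in SPT Medial cells, against 1.76 FPKM in PUB25 Medial cells (6.18). In Distal cells these 3 genes had 371, 144 and 203 FPKM in the SPT line, against 2.44, 1.29 and 3.61 FPKM in the PUB25 line. The Medial difference of these genes was therefore present beyond Medial cells. GASA1, a gibberellin-regulated peptide gene, was among the most abundant with 1277 FPKM in SPT Medial cells, against 40.2 FPKM in PUB25 Medial cells (5.51). SK11 (5.86), bZIP7 (5.68), the subtilase SBT4.12 (5.60), the jasmonate-oxidizing CYP94B3 (5.46), PIP2B (5.47, the PIP2;2 above), LBD16, TED6 and XTR6 completed the 12.

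Families read by name gave a background for the lists. Unlike in some of the lists, family members that passed the filter only through 1 column were not set apart. Lists given without that split may count such members too. MYB factors had 31 higher and 2 lower of 63 measured (49.2% of them higher), with a median of 0.84. MYB84 had 37.8 FPKM in SPT Medial cells, against 0.345 FPKM in PUB25 Medial cells (4.88), and MYB20, a regulator of lignin genes, differed by 4.02. Dof factors, several of which act in the stele, had 11 higher and 1 lower of 19, with a median of 1.57, and DAG1 had 120 FPKM in SPT Medial cells, against 2.47 FPKM in PUB25 Medial cells (5.22). The MYB and Dof shares lay above the 15.0% of all genes, but the filter had a part in them. MYB84, MYB20 and the Dof gene OBP2 were under 1 FPKM in PUB25 Medial cells and passed only through the SPT value. Such members cannot be lower, and their number per family was not counted, so nothing is read from these 2 shares. bHLH factors had 28 higher and 6 lower of 62, and AP2/ERF factors 25 higher and 8 lower of 64. WRKY factors were even, 8 each way of 42, with WRKY18 at 3.77 and WRKY9 at -3.01. Arabinogalactan proteins of the wall had 14 higher and 3 lower of 26. AGP13 had 881 FPKM in SPT Medial cells, against 40.01 FPKM in PUB25 Medial cells (4.84), and AGP30 had 173 FPKM in SPT Medial cells, against 1991 FPKM in PUB25 Medial cells (-3.03). Class III peroxidases were divided, 19 higher and 12 lower of 40, and of 10 laccases 6 were higher and none lower.

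Genes of cysteine/histidine-rich C1 proteins had 25 lower and 9 higher of 51, with a median of -0.99. Cytochrome P450 genes had 30 lower and 20 higher of 94, with CYP71A25 at -4.11 and CYP94B3 at 5.46. Cytosolic ribosomal protein genes had 49 lower and 4 higher of 260 (18.8% and 1.54%, where all genes had 12.7% and 15.0%), with a median of -0.68. DEAD-box RNA helicases had 8 lower and none higher of 51. Proteasome subunits had 1 higher and none lower of 40, and pentatricopeptide repeat proteins 5 higher and 9 lower of 124, both shares under those of all genes. Primary microRNA genes had 20 higher and 5 lower of 29 and snoRNA genes 20 higher and 7 lower of 33, but these are short transcripts, and MIR171a, MIR156e and MIR171c at the top were listed at 0 FPKM in PUB25 Medial cells.

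**Figure D4:**
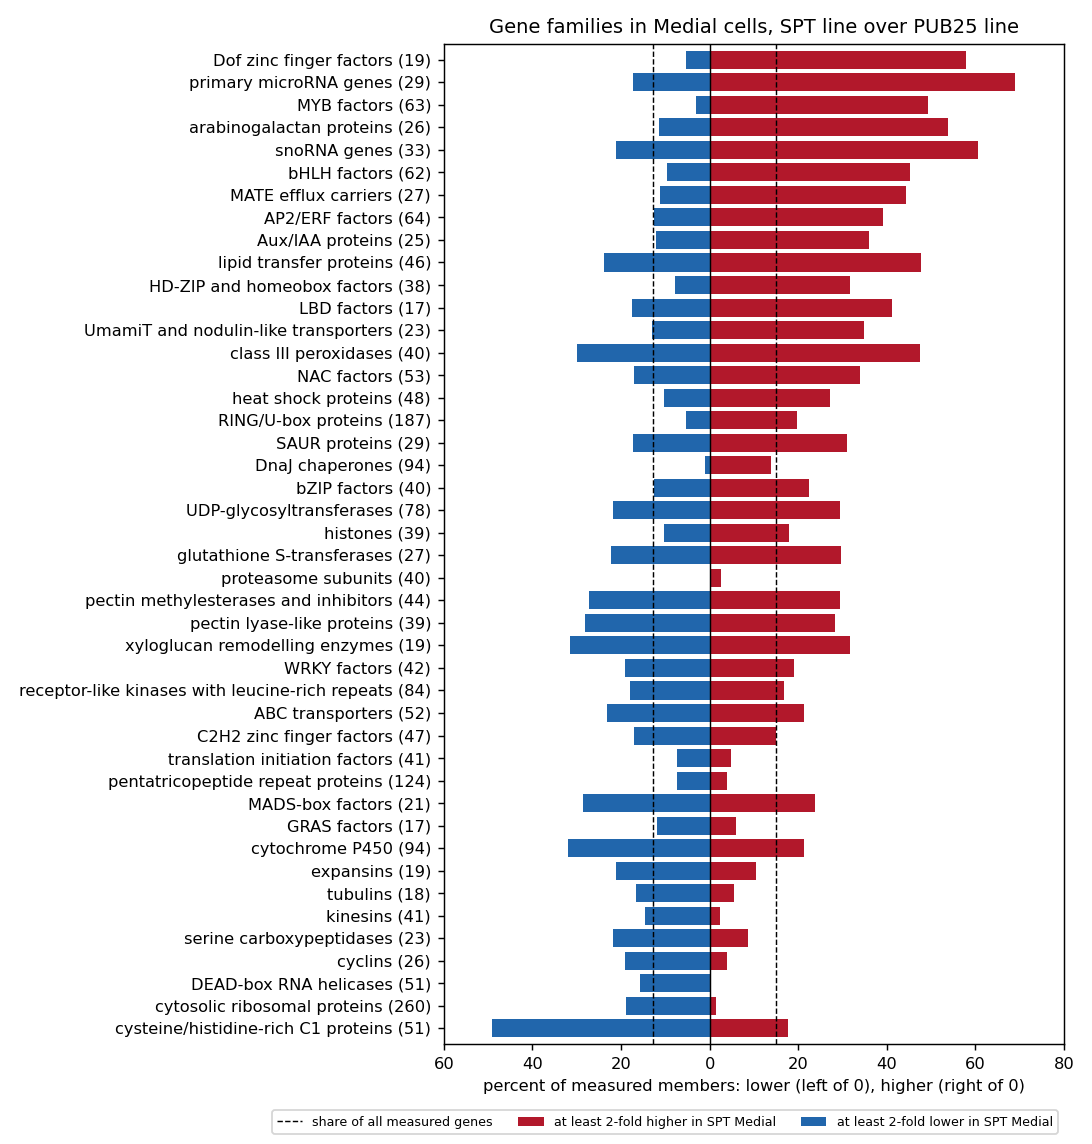
Percent of the measured members of each family (number in brackets) that were at least 2-fold higher (red, right of 0) or at least 2-fold lower (blue, left of 0) in SPT Medial cells, for families with at least 16 measured members. The dashed lines mark the shares of all measured genes, 15.0% higher and 12.7% lower. Dof, MYB, arabinogalactan and bHLH families are among those that reach past the line on the right, with primary microRNA and snoRNA genes furthest. C1 proteins, cytochrome P450 and class III peroxidases are among those past the line on the left, and the last 2 are past the right line too. Members that passed the filter only through 1 column were not set apart.

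The same difference was then read in the other zones, which rest on other libraries. In Proximal cells 1282 of 16506 genes (7.77%) were at least 2-fold higher and 1400 (8.48%) lower in the SPT line, and in Distal cells 2924 of 17161 (17.0%) higher and 3202 (18.7%) lower. Of the 2599 genes higher in SPT Medial cells 2419 were measured in Distal cells, where 1785 (73.8%) were at least 2-fold higher in the SPT line too, and 1957 in Proximal cells, where 751 (38.4%) were. Of the 2193 genes lower in SPT Medial cells 2107 were measured in Distal cells, where 922 (43.8%) were at least 2-fold lower in the SPT line, and 1961 in Proximal cells, where 792 (40.4%) were. The opposite difference of at least 2-fold was found in Distal cells for 20 of the higher and 85 of the lower genes, and in Proximal cells for 72 of the higher and 36 of the lower.

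The lists took different courses across zones. Lignin, phloem, endodermis and aquaporin genes kept a median above 0 in Proximal, Medial and Distal cells. The pericycle median was above 0 in each zone too, but rested on 1 gene in Proximal cells. In Medial cells it rested on genes that passed the filter only through the SPT value, so nothing is read from it. The secondary wall polysaccharide list had a median of -1.24 in Proximal cells, 2.21 in Medial cells and 0.45 in Distal cells, with 9 of 14 measured genes lower and none higher in Proximal cells. XCP2 had 2.78 FPKM in Proximal, 648 in Medial and 368 in Distal cells of the SPT line, against 32.9, 28.2 and 114 FPKM in the same zones of the PUB25 line. MYB46 had 0.115, 41.6 and 21.4 FPKM in the SPT line, against 5.16, 2.89 and 8.25 FPKM in the PUB25 line. Both genes were thus lowest in Proximal cells and highest in Medial cells of the SPT line, and highest in Distal cells of the PUB25 line. Mitosis had a median of -0.12 in Proximal, -0.91 in Medial and -1.74 in Distal cells, and ribosome biogenesis 0.67, -0.59 and -2.39. Both lists were progressively further to the lower side in that order of zones. The triterpene list had -1.20, -1.39 and 1.11 and the nitrogen and sulfur list -0.99, -0.91 and 0.86, so their lower Medial values in the SPT line were met by higher Distal values.

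**Figure D5:**
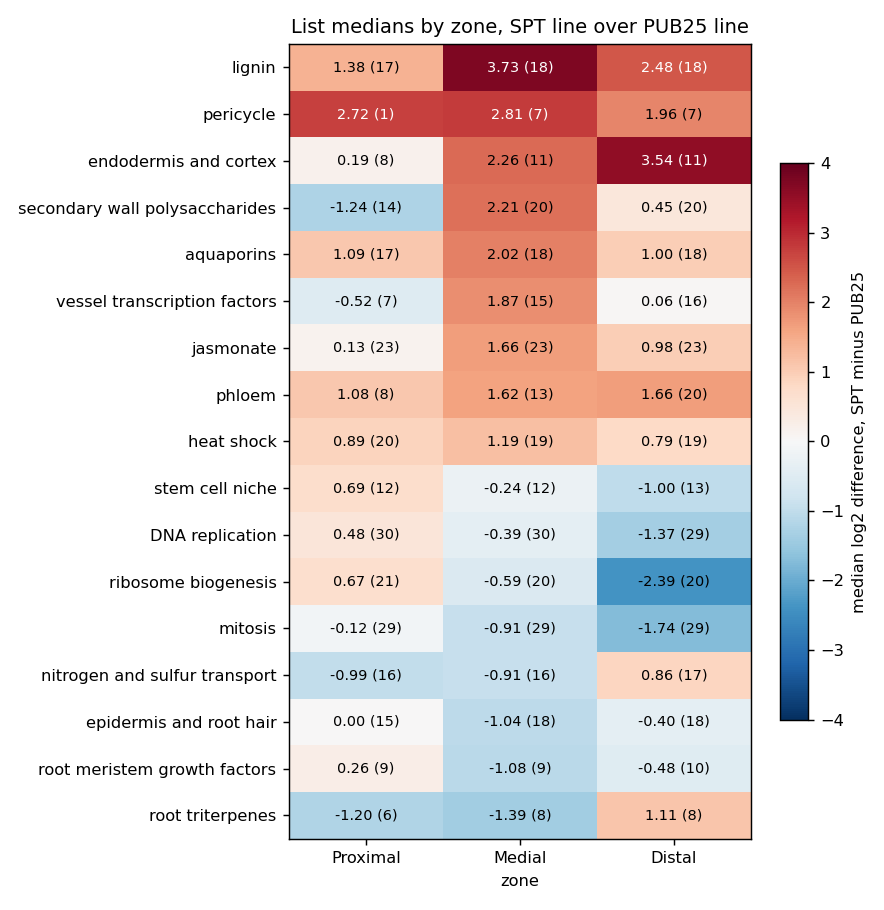
Median difference of 17 lists, SPT minus PUB25 on log2 of quantile-normalized FPKM + 1, in Proximal, Medial and Distal cells, with the number of measured genes in brackets and red for higher in the SPT line. Secondary wall genes are at -1.24, 2.21 and 0.45 and ribosome biogenesis genes at 0.67, -0.59 and -2.39 in that order of zones. The pericycle value in Proximal cells rests on 1 gene.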

How the data were processed

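RNA of sorted root meristem protoplasts was isolated with a QIAGEN RNeasy micro kit, and libraries were built with a NuGEN Ovation ultralow kit, per the labels' protocols. The submitters' processing notes name Cuffdiff, Cufflinks, TopHat, Bowtie and the TAIR10 build without saying what each did. The authors deposited FPKM with 1 value for each gene in each zone of a line, made from 3 libraries in a way not given in the sources used here. The authors' deposited table also holds log2 fold changes and q values, which compare zones within a line and were not used between lines. Their smallest q value was 0.000359 for the SPT line and 0.000407 for the PUB25 line, so a common run cannot be assumed. A limma test per library was planned in case library values were present. Without them values are descriptive.

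The SPT Medial and PUB25 Medial columns were joined by gene and quantile-normalized, and rows were kept where the 2 values averaged 1 FPKM or more. A pseudocount of 1 was added, and a difference of at least 1 on the log2 scale was counted. Rows that join several genes (1390) were kept out of lists and families. For 606 names with several loci, among them EXPA9, ACS11, MYC3, VND1, VND5 and BRN2, no position is given. Strandedness is not given in the sources used here, so overlapping genes may share reads. Gene names came from RefSeq (TAIR10.1), to which 27219 rows matched. Positions are deposited loci, counted from 1, and 99.0% of 26616 single loci covered the RefSeq gene within 1000 bases. The 36 lists (839 names, 777 with a row of their own) and 50 families were chosen with earlier results of these data known. Named genes are the reporter genes, the 12 largest differences each way among genes with a symbol, 1 locus, values above 0 in both columns and at least 10 FPKM in the higher, and up to 6 per list and 3 per family by size. Further members named to describe a list were chosen after their values were seen. For 3 names that had matched another gene of the same symbol (FAH1, PEN3, ACR4) the identifier was set by hand after values were seen. A few list members are counted but not reported here by name. The computation was tested on simulated data. Alternatives were a pseudocount of 0.1, no filter, a minimum of 5 FPKM, the deposited scale, median centring, all 6 columns normalized together and rows of 1 gene at 1 locus. Protein-coding rows only, rows above 0 in both columns only, and counts for the other zones were added after the data were seen. Tools were python 3.11.15, numpy 2.4.6, pandas 2.3.3 and matplotlib 3.10.9.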

Additional observations from a re-analysis of the deposited data

Results flagged for a closer look

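Some genes named above or in the lists were at least 2-fold apart between the lines in Medial cells and at least 2-fold apart the other way in another zone. The difference between zones was not tested, since each value is pooled, and a difference below is again SPT minus PUB25 on the log2 scale.

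Genes of vessel walls and vessel death were higher in SPT Medial cells and lower in SPT Proximal cells. The Proximal difference was -2.43 for MYB46, -1.63 for CESA4, -1.45 for CESA7, -1.45 for CESA8, -1.75 for TBL29, -1.98 for COBL4, -1.94 for LAC4, -1.08 for XCP1 and -3.06 for XCP2. IAA3 (-1.07) and MYB51 (-1.24) had the same pair of directions.

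RGF1 (1.05), GL3 (1.07) and SCZ (1.66) were higher in SPT Proximal cells and lower in SPT Medial cells. In Distal cells T5L1 (-1.08) and LOG4 (-1.41), genes of the TMO5 pathway, were lower in the SPT line, where their Medial values were higher. CEL5 (2.06), CKX4 (2.11), THAS1 (1.26), MRN1 (1.44), NRT1.1 (1.15), NRT3.1 (1.41) and SULTR1;2 (1.44) were higher in SPT Distal cells and lower in SPT Medial cells. CEL5, a root cap cellulase, had 136 FPKM in SPT Medial cells, against 359 FPKM in PUB25 Medial cells, and 313 FPKM in SPT Distal cells, against 78.8 FPKM in PUB25 Distal cells.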

How the results depend on the processing

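No paired analysis was possible because the files hold 1 pooled value per line and zone. For the same reason leaving out a replicate and the limma fit were not run, and a library that decides a value cannot be seen. Under 9 alternatives the count of genes higher in SPT Medial cells ran from 1750 to 3073 and that of lower genes from 1450 to 2902. The lower count was 1450 and the Proximal counts were 788 higher and 900 lower with a minimum mean of 5 FPKM, which tests 11918 Medial genes. Higher genes were 54.2% of those at least 2-fold apart, 66.8% with median centring and 48.4% on the deposited scale. Of 313 list or named genes at least 2-fold apart, 280 stayed so under every alternative that gave a value, 33 were within 2-fold in some, and none reversed. Of 13 list medians past 2-fold, 8 stayed past it throughout. With no filter 4 dropped under it: flavonoid to 0.04, phloem to 0.94, vessel transcription factors to 0.996 and epidermis to -0.99. The epidermis list was at -0.98 on the deposited scale and -0.71 with median centring, and root meristem growth factors at -0.96 with a minimum of 5 FPKM and -0.86 with median centring. Low values and short transcripts are the least certain, and no detection limit can be given without counts.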
